A study of Drosophila melanogaster with 15 samples.

Results

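The ecdysone receptor and its first responders were described here as 10 genes, EcR, usp, br, Eip74EF, Eip75B, Eip78C, Eip93F, Hr46, Hr39 and ftz-f1, chosen by gene symbol out of 14671 genes with values. All 10 were found and all 10 passed the filter on low values, which asked for 3 or more of the 15 libraries with an FPKM of 1 or more and kept 9213 genes. FPKM is a fragment count corrected for the length of the transcript and for sequencing depth. For 9 of the 10 genes the FPKM was at least 1 in all 15 libraries, and for Eip93F in 12 of them.

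Ecdysone is the steroid hormone whose pulses drive moulting and metamorphosis in insects. Its active form binds a pair of nuclear receptors, EcR and Ultraspiracle (usp), which switch on a small set of early genes that encode transcription factors, among them br, Eip74EF and Eip75B. These factors act on each other and on later genes: the early-late receptor Hr46, named Hr3 in the current annotation, activates ftz-f1, Eip75B protein can repress Hr46 protein, and Eip93F directs the adult programme at later pulses. In the eye disc, ecdysone signalling is known for its part in the progress of the morphogenetic furrow and in the maturation of the retina.

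The samples are polyadenylated RNA from eye discs, the sacs of larval epithelium that form the adult eye, of third-instar Drosophila melanogaster. All 5 groups, of 3 libraries each, carried GMR-Gal4, which drives expression in cells behind the morphogenetic furrow, and UAS-eGFP. The first group added UAS-MonosigaYAP, the Yap protein of a choanoflagellate (Monosiga Yap), and the second added UAS-MonosigaYAP+HumanTBD, the same protein joined to a human TBD, an abbreviation the labels do not spell out and give elsewhere as human TEAD (Monosiga Yap-TBD). The third added UAS-DrosophilaYKI S168A, the fly's own Yap protein Yorkie with a serine replaced (Yki S168A), and the fourth UAS-TrichoplaxYAP S81A, Yap of a placozoan with a serine replaced (Trichoplax Yap S81A). The control carried GMR-Gal4 and UAS-eGFP alone. Each library pooled the GFP-positive domains of 25 to 30 discs, cut out by hand, so the values are means over many animals and over all cells in that domain. The age of the larvae in hours, their sex, and the sites and number of insertions of each transgene are not given in the sources used here. Yap and Yorkie are the coactivators held in check by the Hippo pathway.

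The estimated depth was 12.1 to 20.7 M fragments per library, and 8194 to 9104 genes reached an FPKM of 1. The eye disc genes ey, eya, so, dac, Optix and gl were measured in all groups, and the summed FPKM of these 6 was 225 to 320 in Monosiga Yap-TBD libraries, 342 to 487 in the libraries of the other 3 constructs and 436 to 547 in control libraries. The summed FPKM of 7 photoreceptor and neuron markers was 333 to 425 in Monosiga Yap libraries, 89.3 to 93.1 in Monosiga Yap-TBD, 161 to 214 in Yki S168A and 154 to 205 in Trichoplax Yap S81A, against 347 to 438 in control libraries. Trichoplax Yap S81A replicate 1 stood apart in fat body markers, with a summed FPKM of 4508; without it, as with it, 0 of the 10 genes were called between that construct and the control. In these bulk samples, fewer cells of a type and less RNA per cell cannot be told apart.

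The receptor pair was present at moderate levels in every library. EcR (2R:1977924-2056681, minus strand, build dm3), which binds the hormone, had 34.0, 38.8 and 27.8 FPKM in Monosiga Yap libraries, 43.2, 32.6 and 45.7 in Monosiga Yap-TBD, 44.4, 34.4 and 34.9 in Yki S168A and 40.3, 35.1 and 36.0 in Trichoplax Yap S81A, against 27.7, 30.2 and 34.2 in control libraries. All libraries of Yki S168A and Trichoplax Yap S81A lay above all control libraries, while 1 Monosiga Yap-TBD library fell within the control range. EcR averaged 40.5 ± 6.95 FPKM in Monosiga Yap-TBD libraries and 30.7 ± 3.23 in controls (SD, n = 3 each), a log2 difference of 0.38 (SE 0.16) that missed the threshold with a limma adjusted p of 0.0976. In the authors' deposited table the same gene had a natural log ratio of 0.323 and an adjusted value of 0.00419, which is below 0.05. Of the 6 limma fits with 1 library of these 2 groups left out, 1 called EcR, and the adjusted p ran from 0.0367 to 0.260. The fit that called it left out Monosiga Yap-TBD replicate 2, the library with the lowest EcR of its group.

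The partner receptor usp (X:1932829-1935316, minus strand), the fly's RXR, had 37.1, 23.5 and 43.8 FPKM in Monosiga Yap libraries, 34.9, 38.7 and 26.9 in Monosiga Yap-TBD, 28.7, 36.6 and 39.8 in Yki S168A and 36.1, 38.8 and 39.6 in Trichoplax Yap S81A, against 40.1, 33.8 and 35.8 in control libraries. The groups overlapped throughout, and the lowest and the highest of the 15 values both came from Monosiga Yap. Groups accounted for 10.2% of the variation of usp between libraries, the smallest share of the 10 genes. The log2 difference from the control lay between -0.14 and 0.06 for the 4 constructs, and for Monosiga Yap-TBD its 95% interval was -0.56 to 0.29.

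The Broad gene br (X:1503176-1553962, plus strand), whose zinc-finger proteins are made in the first wave of the response, had the highest level of the 10 genes. Its FPKM was 171, 197 and 214 in Monosiga Yap libraries, 178, 178 and 185 in Monosiga Yap-TBD, 165, 230.4 and 222 in Yki S168A and 184, 242 and 221 in Trichoplax Yap S81A, against 220.2, 165 and 206 in control libraries. All 5 groups overlapped. The highest br library was 1.46-fold above the lowest, the narrowest range of the 10 genes. For Trichoplax Yap S81A, which had the largest br difference, the 95% interval of the fold change was 0.876 to 1.37, and for Monosiga Yap-TBD it was 0.740 to 1.15.

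Eip74EF (3L:17553258-17612407, minus strand), an ETS-domain factor, had 8.05, 14.9 and 10.9 FPKM in Monosiga Yap libraries, 16.6, 14.2 and 21.6 in Monosiga Yap-TBD, 16.1, 14.1 and 12.8 in Yki S168A and 10.7, 12.1 and 11.9 in Trichoplax Yap S81A, against 11.97, 12.2 and 15.1 in control libraries. Monosiga Yap-TBD held the highest value and Monosiga Yap the lowest, but 1 library of each crossed over. The mean was 17.5 ± 3.74 FPKM with the TBD and 11.3 ± 3.42 without it (SD, n = 3 each), and Eip74EF rose in Monosiga Yap-TBD against Monosiga Yap by 0.61 on the log2 scale (SE 0.20, limma adjusted p = 0.0346). That call was lost, with adjusted p of 0.0597 to 0.152, when any of 4 libraries was left out, replicates 1 and 3 of Monosiga Yap-TBD and replicates 1 and 3 of Monosiga Yap. Against the control the log2 difference of Monosiga Yap-TBD was 0.38 (SE 0.20, limma adjusted p = 0.186).

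**Figure D1:**
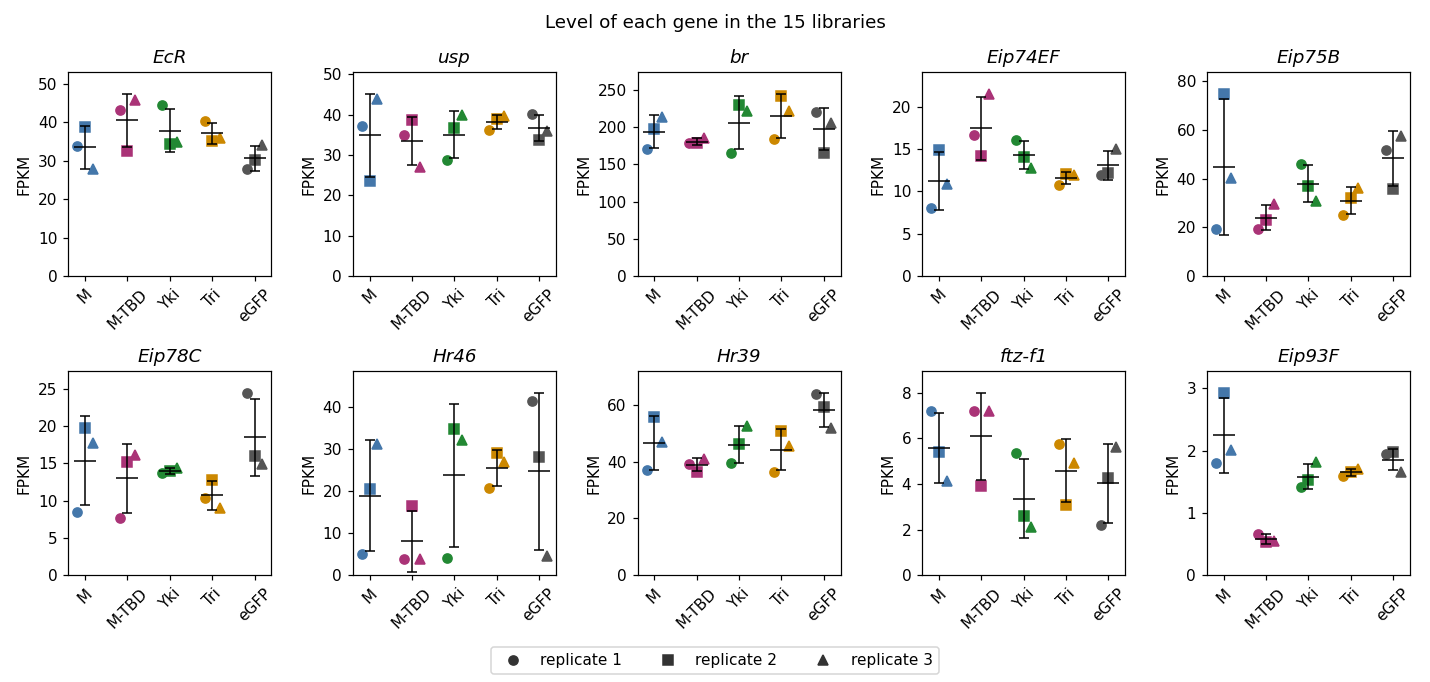
FPKM of each of the 10 genes (y axis, linear from 0) in the 5 groups (x axis: M, Monosiga Yap; M-TBD, Monosiga Yap-TBD; Yki, Yki S168A; Tri, Trichoplax Yap S81A; eGFP, control). Symbols are libraries by replicate number, and black bars are the mean and SD of 3 libraries. Eip93F lies between 0.527 and 0.664 FPKM in the 3 Monosiga Yap-TBD libraries, below all other libraries, while Hr46 splits within groups.

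The nuclear receptor genes Eip75B and Eip78C had lower values than the control in several construct libraries, with wide spread. Eip75B (3L:17945063-18052698, minus strand), a haem-binding receptor, had 19.3, 75.0 and 40.3 FPKM in Monosiga Yap libraries, 19.4, 22.96 and 29.7 in Monosiga Yap-TBD, 46.1, 36.9 and 30.7 in Yki S168A and 25.0, 31.9 and 36.0 in Trichoplax Yap S81A, against 51.9, 35.7 and 57.7 in control libraries. All 3 Monosiga Yap-TBD libraries lay below all controls, and Monosiga Yap held both the lowest and the highest value of the 15. The mean was 24.0 ± 5.23 FPKM in Monosiga Yap-TBD libraries and 48.4 ± 11.4 in controls (SD, n = 3 each), a log2 difference of -0.98 (SE 0.37) with a limma adjusted p of 0.0718 and a 95% interval of -1.77 to -0.18. A fit on these 2 groups alone gave the same difference with an adjusted p of 0.0115. With 1 library of these groups left out, 0 of 6 limma fits called Eip75B, with adjusted p of 0.0633 to 0.202.

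Eip78C (3L:21220019-21257721, plus strand), a receptor related to Eip75B, had 8.51, 19.7 and 17.7 FPKM in Monosiga Yap libraries, 7.60, 15.2 and 16.1 in Monosiga Yap-TBD, 13.6, 13.9 and 14.4 in Yki S168A and 10.3, 12.8 and 8.998 in Trichoplax Yap S81A, against 24.4, 16.03 and 14.9 in control libraries. The libraries of Yki S168A and Trichoplax Yap S81A lay below all controls, the first by a narrow margin. Trichoplax Yap S81A had a mean of 10.7 ± 1.91 FPKM and the control 18.5 ± 5.19 (SD, n = 3 each), a log2 difference of -0.72 (SE 0.30, limma adjusted p = 0.154).

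Hr39 (2L:21237237-21259675, plus strand), a receptor of the same family as ftz-f1, was highest in the control. It had 37.1, 55.9 and 46.8 FPKM in Monosiga Yap libraries, 39.3, 36.6 and 41.1 in Monosiga Yap-TBD, 39.4, 46.1 and 52.6 in Yki S168A and 36.4, 50.9 and 45.7 in Trichoplax Yap S81A, against 63.7, 59.2 and 51.8 in control libraries. The libraries of Monosiga Yap-TBD and of Trichoplax Yap S81A lay below all control libraries, and 1 library each of the other 2 constructs reached into the control range. Hr39 fell in Monosiga Yap-TBD to 39.0 ± 2.29 FPKM, against 58.2 ± 6.05 in controls (SD, n = 3 each), a ratio of 0.670 and a log2 difference of -0.56 (SE 0.16, limma adjusted p = 0.0209). The log2 differences of the other constructs were -0.33, -0.34 and -0.39 for Monosiga Yap, Yki S168A and Trichoplax Yap S81A, with limma adjusted p of 1, 0.215 and 0.141. In the authors' deposited table the natural log ratio for Monosiga Yap-TBD was -0.405, with an adjusted value of 0.000494. The limma call was lost when any of 4 libraries was left out, replicates 1 and 2 of Monosiga Yap-TBD and replicates 1 and 2 of the control, with adjusted p of 0.0546 to 0.0814.

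Eip93F (3R:17774836-17837910, plus strand), which specifies adult development in the late response, had the lowest level of the 10 genes. Its FPKM was 1.79, 2.93 and 2.02 in Monosiga Yap libraries, 0.664, 0.527 and 0.547 in Monosiga Yap-TBD, 1.41, 1.53 and 1.81 in Yki S168A and 1.60, 1.66 and 1.71 in Trichoplax Yap S81A, against 1.94, 1.98 and 1.66 in control libraries. The 3 Monosiga Yap-TBD libraries were the lowest of the 15, and the 12 others ran from 1.41 to 2.93. The mean was 0.579 ± 0.0742 FPKM in Monosiga Yap-TBD libraries and 1.86 ± 0.174 in controls (SD, n = 3 each), a ratio of 0.312. Eip93F fell by 0.85 on the log2(FPKM + 1) scale (SE 0.18, limma adjusted p = 0.00262), a scale that understates the change of a gene this low.

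The fall of Eip93F in Monosiga Yap-TBD held against each of the other groups. It was 1.02 log2 units lower than in Monosiga Yap (log2 difference -1.02, SE 0.18, limma adjusted p = 0.000671), and the limma adjusted p was 0.0248 against Yki S168A and 0.0190 against Trichoplax Yap S81A. Groups accounted for 90.9% of the variation of Eip93F between libraries, against a median of 45% over all tested genes. At the estimated depth the values rest on 6.4 to 11.2 fragments per kilobase of transcript in Monosiga Yap-TBD libraries and on 23.4 to 31.2 in control libraries. Photoreceptor and neuron markers were also lowest in the Monosiga Yap-TBD libraries, as given above, and their part in the result was not tested.

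Hr46 (2R:6092959-6124853, minus strand) differed more between libraries of a group than between groups. Its FPKM was 5.08, 20.6 and 31.3 in Monosiga Yap libraries, 3.79, 16.6 and 3.82 in Monosiga Yap-TBD, 4.19, 34.9 and 32.3 in Yki S168A and 20.7, 29.1 and 26.9 in Trichoplax Yap S81A, against 41.5, 28.2 and 4.54 in control libraries. In all, 5 libraries from 4 groups, the control among them, lay at 3.79 to 5.08 FPKM and the 10 others at 16.6 to 41.5. Each construct overlapped the control, while all Monosiga Yap-TBD libraries lay below all Trichoplax Yap S81A libraries. The library lowest in Hr46 was replicate 1 in all 4 construct groups and replicate 3 in the control. The log2 difference between Monosiga Yap-TBD and the control was -1.36, with a 95% interval of -3.51 to 0.79 and a limma adjusted p of 0.359.

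ftz-f1 (3L:18745014-18791831, minus strand), the factor made after a pulse has passed and needed for the response to the next, had 7.19, 5.42 and 4.13 FPKM in Monosiga Yap libraries, 7.20, 3.90 and 7.19 in Monosiga Yap-TBD, 5.34, 2.61 and 2.10 in Yki S168A and 5.75, 3.06 and 4.94 in Trichoplax Yap S81A, against 2.21, 4.24 and 5.63 in control libraries. All 5 groups overlapped, and the log2 differences from the control ran from -0.22 to 0.52, with limma adjusted p of at least 0.302.

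In counts, 2 of the 10 genes passed limma's threshold in Monosiga Yap-TBD against the control, both lower, Hr39 and Eip93F, where 24.6% of all tested genes passed in either direction and 12% passed as lower. A further measure is overlap: 3 genes, Eip75B, Hr39 and Eip93F, did not overlap between these groups, where 43.3% of all tested genes did not. The share of the 10 genes that passed was therefore near that of all genes. In Monosiga Yap against the control, limma called 0 of the 10, with 0 at an unadjusted p under 0.05 and 0 in the authors' deposited table, where limma called 0.326% of all tested genes and the authors' adjusted value was under 0.05 for 0.744%. There 0 of the 10 were free of overlap between groups, against 7.3% of all tested genes. In Yki S168A against the control, limma called 0 of the 10, with 0 at an unadjusted p under 0.05 and 0 in the authors' deposited table, against backgrounds of 11.9% and 10.1%. There 2 of the 10, EcR higher and Eip78C lower, did not overlap, where 33.2% of all tested genes did not. In Trichoplax Yap S81A against the control, limma called 0 of the 10, with 2 (Eip78C and Hr39) at an unadjusted p under 0.05 and 0 in the authors' deposited table, against backgrounds of 12.2% and 8.91%. There 3 of the 10, EcR higher and Eip78C and Hr39 lower, did not overlap, where 35.3% of all tested genes did not. The counts from the authors' deposited table cannot include Eip75B and Hr46, which are listed there without a measured ratio, as given below. Its shares are of 9003 genes.

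The 4 comparisons with the control share its 3 libraries. Between constructs, 2 genes passed in Monosiga Yap-TBD against Monosiga Yap, Eip74EF higher and Eip93F lower, where 26.5% of all tested genes passed. Against Yki S168A and against Trichoplax Yap S81A, 1 gene passed in Monosiga Yap-TBD, Eip93F, where 7.13% and 6.32% of all tested genes passed. In Trichoplax Yap S81A against Yki S168A, limma called 0 of the 10, with 0 at an unadjusted p under 0.05 and 0.51% of all tested genes called. The authors' deposited table holds no comparison between constructs. The median log2 difference of the 10 genes from the control was -0.17 for Monosiga Yap, -0.32 for Monosiga Yap-TBD, -0.11 for Yki S168A and -0.02 for Trichoplax Yap S81A, where the medians of all tested genes were -0.02, 0.01, 0.00 and 0.04.

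**Figure D2:**
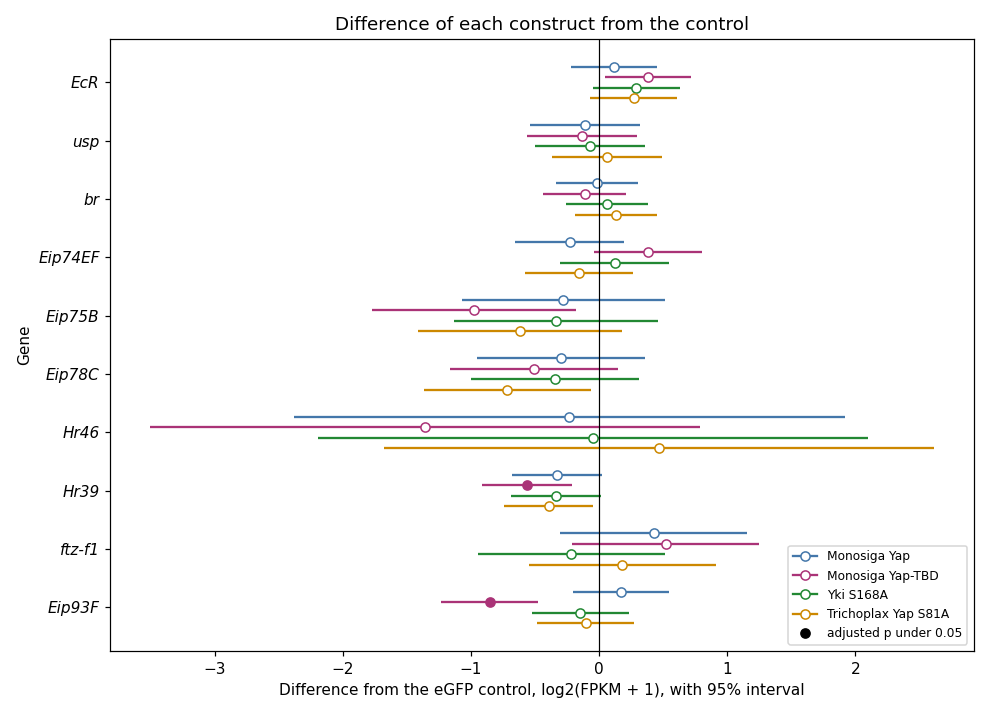
Difference of each construct from the control on the log2(FPKM + 1) scale (x axis) for the 10 genes (y axis), with 95% intervals from the limma fit of all 15 libraries. Filled points passed an adjusted p of 0.05: Hr39 and Eip93F in Monosiga Yap-TBD; the Hr46 intervals are the widest and reach from -3.51 to 2.62.

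Ordered by mean, Monosiga Yap-TBD stood highest for EcR, Eip74EF and ftz-f1 and lowest for usp, br, Eip75B, Hr46, Hr39 and Eip93F. Of the 40 steps between neighbouring groups in these orders, 4 for each gene, limma called 1 at an adjusted p under 0.05, the step from Monosiga Yap-TBD up to Yki S168A for Eip93F. The full span from the highest to the lowest group was called for Eip74EF, Hr39 and Eip93F. Its 2 groups were picked for each gene by their means, a choice that the adjusted p does not account for. The shares of all tested genes called in the same way were not computed.

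The authors' deposited table lists Eip75B and Hr46 with a ratio of 0, a p of 1 and a mean level of -6 in all 4 comparisons, although both have FPKM values in every library. Of all tested genes, 210 are listed in this way. For the 8 other genes the deposited table held values, and 3 of them, EcR, Hr39 and Eip93F, had an adjusted value under 0.05 in Monosiga Yap-TBD, where 17.2% of genes did. The natural log ratio of Eip93F there was -1.16, with an adjusted value of 0.00673.

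The spread between libraries of a group set the 10 genes apart from each other. The SD within groups of log2(FPKM + 1) was 1.25 for Hr46, which is larger than that of 98.1% of all tested genes, 0.50 for Eip75B, 0.45 for ftz-f1 and 0.42 for Eip78C, and each of these 3 exceeded at least 83.5% of genes. It was 0.26 for usp, 0.25 for Eip74EF, 0.21 for Hr39, 0.20 for EcR, 0.19 for br and 0.14 for Eip93F, where the median of all tested genes was 0.23. For a gene as low as Eip93F the added 1 shrinks the spread as well as the change, so its SD cannot be set beside those of higher genes. The highest Hr46 library was 11.0-fold above the lowest.

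**Figure D3:**
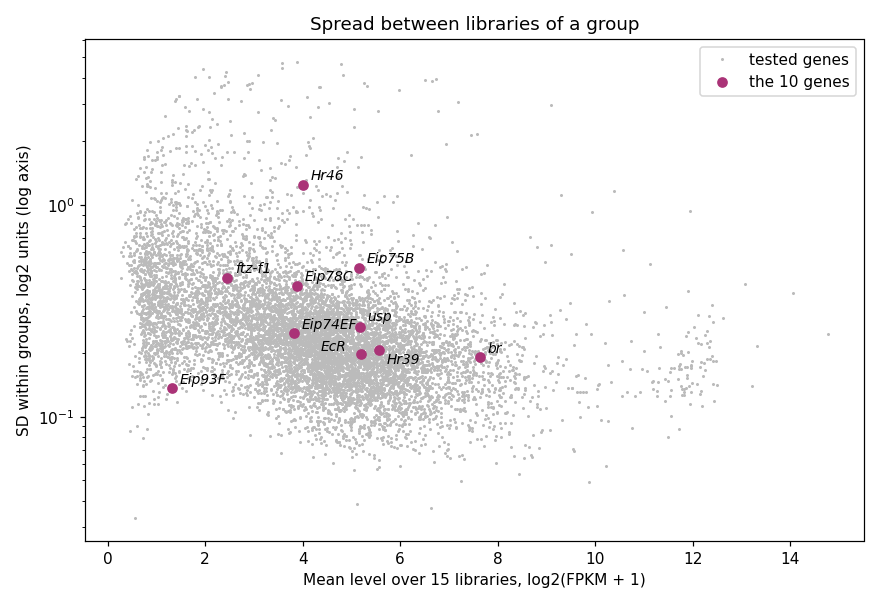
SD within groups of log2(FPKM + 1) (y axis, log axis) against the mean level over 15 libraries (x axis) for 9213 tested genes (grey) and the 10 genes (named). Hr46 lies at an SD of 1.25, above 98.1% of the genes, and Eip93F at 0.14, on a scale where the added 1 shrinks the spread of low genes.

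Several ecdysone-responsive genes were low or high in the same libraries as Hr46, a pattern seen after the values were known and given as a description. In each of the 5 groups the library lowest in Hr46 was the one highest in ftz-f1, and in 4 of the 5 groups the 3 libraries had exactly opposite orders for the 2 genes. The share of all genes with such opposite orders was not computed. In Monosiga Yap-TBD the choice was a near tie: replicates 1 and 3 had 3.79 and 3.82 FPKM of Hr46 and 7.20 and 7.19 of ftz-f1. In Trichoplax Yap S81A the library lowest in Hr46 had 20.7 FPKM, well above the low libraries of the other groups. In the control, for example, replicate 3 had 4.54 FPKM of Hr46 and 5.63 of ftz-f1, while replicate 1 had 41.5 and 2.21. The same library was the highest of its group in EcR in 3 of 5 groups, and the lowest in Eip78C, Hr39 and Eip93F in 4 of 5 groups each, where 690 of 9213 tested genes (7.49%) were lowest there in at least 4 groups. In the remaining group it was the highest in Eip93F. Eip75B and Eip74EF went both ways. That library was lowest in Eip75B in 3 groups and highest in 2, and lowest in Eip74EF in 2 groups and highest in 2. For br it was lowest in 3 groups and highest in 0, and for usp lowest in 2 and highest in 0.

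By likeness of profile over the 15 libraries, measured as the root mean square difference of centred log2(FPKM + 1), the 3 nearest of 3704 candidate genes to Hr46 were Hr4 (0.60), ImpE1 (0.65) and ImpE3 (0.73), where the median candidate differed by 1.196. Hr4 encodes another ecdysone-induced nuclear receptor, and ImpE1 and ImpE3 are named for their induction by ecdysone in imaginal discs. Hr4 had 3.35, 16.6 and 12.1 FPKM in Monosiga Yap libraries, 3.79, 12.3 and 4.06 in Monosiga Yap-TBD, 11.2, 21.5 and 29.6 in Yki S168A and 9.77, 24.4 and 16.8 in Trichoplax Yap S81A, against 28.0, 13.2 and 5.93 in control libraries. Its low libraries were largely those of Hr46, with Monosiga Yap replicate 1, Monosiga Yap-TBD replicates 1 and 3 and control replicate 3 lowest in the series.

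ImpE1 had 41.7, 97.4 and 79.2 FPKM in Monosiga Yap libraries, 42.2, 105 and 39.6 in Monosiga Yap-TBD, 53.9, 105 and 152 in Yki S168A and 84.4, 120.0 and 88.6 in Trichoplax Yap S81A, against 129, 75.8 and 32.4 in control libraries. The 5 libraries low in Hr46 were also the 5 lowest in ImpE1. ImpE3 differed in that all its Yki S168A and Trichoplax Yap S81A libraries had at least 114 FPKM, against 33.4 to 74.9 in Monosiga Yap-TBD.

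**Figure D4:**
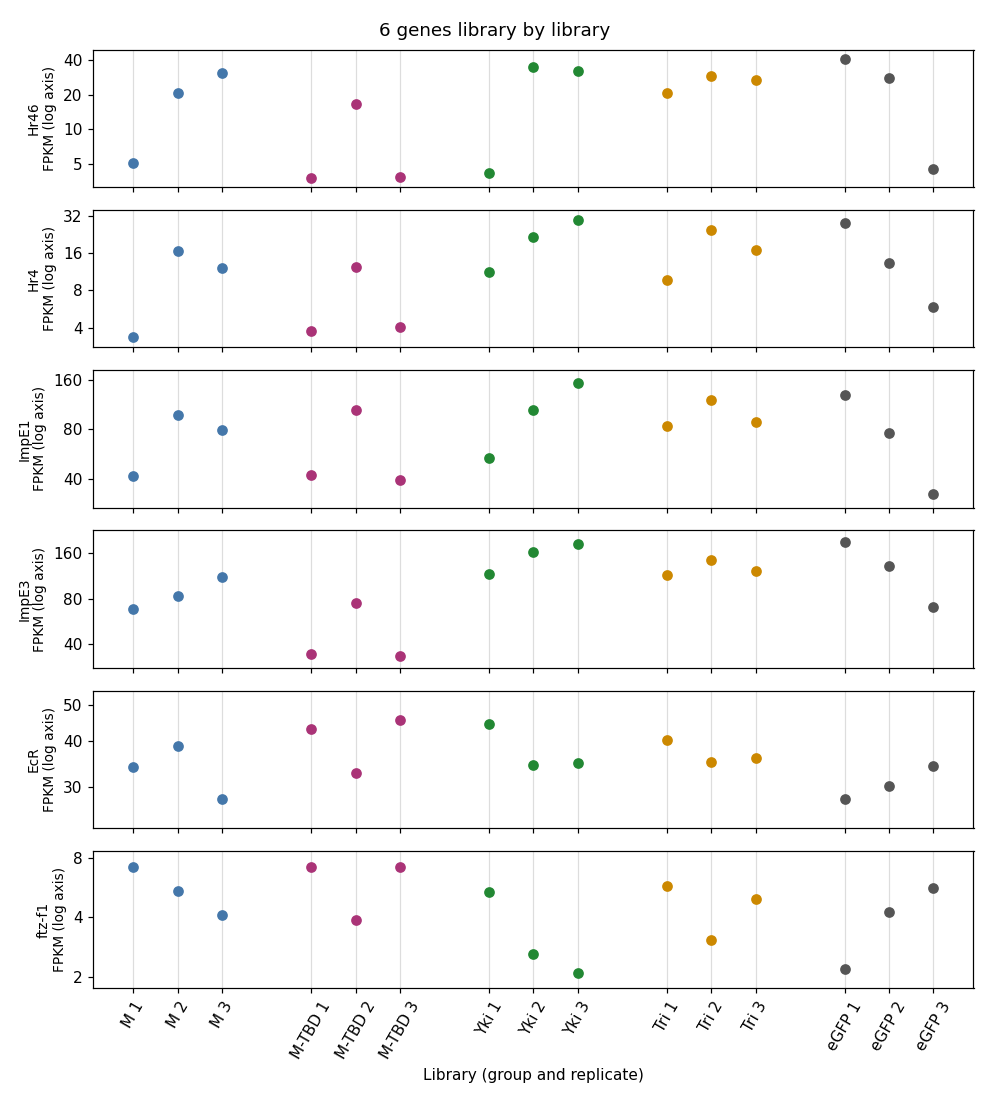
FPKM (y axes, log axes) of Hr46, Hr4, ImpE1, ImpE3, EcR and ftz-f1 in each of the 15 libraries (x axis, group and replicate; short names M, Monosiga Yap; M-TBD, Monosiga Yap-TBD; Yki, Yki S168A; Tri, Trichoplax Yap S81A; eGFP, control). In control replicate 3, Hr46 is at 4.54 FPKM, Hr4 at 5.93 and ImpE1 at 32.4, the lowest of their group, while ftz-f1 is at 5.63, the highest of its group.

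Across all tested genes, 84 of 9213 (0.912%) were lowest in the libraries lowest in Hr46 in all 5 groups, and 53 (0.575%) were highest. Of a list of 31 tested ecdysone-inducible genes, 2 (6.45%), Hr4 and Blimp-1, were lowest in all 5. ImpE1, ImpE2, ImpE3, Eip55E and Eip71CD were lowest in 4 of 5 groups, so that 7 of the 31 (22.6%) were lowest in at least 4, against 7.49% of all tested genes. In the remaining group Eip55E and Eip71CD were highest in that library. Highest in at least 4 groups were 0 of the 31 and 304 (3.3%) of all tested genes. The same libraries had the highest summed glia markers of their group in 4 of 5 groups and the highest summed muscle markers in 4 of 5. Summed fat body and summed trachea markers were highest there in 3 of 5 groups each. Glia, fat body and trachea sums were each lowest there in 1 of 5 groups, and muscle sums in 0. These libraries include Trichoplax Yap S81A replicate 1, which stood apart in fat body markers. They were the deepest in 2 of 5 groups and the shallowest in 2 of 5. The part of these markers in the pattern was not tested.

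For Eip93F the 3 nearest profiles were c(3)G (0.16), CBP (0.16) and didum (0.17), where the median candidate differed by 0.47. These were chosen for a profile like that of Eip93F, so their values are a description with no test. The likeness holds on the log2(FPKM + 1) scale, where the added 1 shrinks the differences of a gene as low as Eip93F. In mean FPKM, Eip93F fell to a ratio of 0.312 in Monosiga Yap-TBD over the control, a larger fold change than that of these 3 genes. CBP averaged 72.6 ± 3.74 FPKM in Monosiga Yap-TBD libraries and 113 ± 10.4 in controls (SD, n = 3 each). The unconventional myosin didum averaged 20.4 ± 1.53 FPKM there and 37.5 ± 4.02 in controls (SD, n = 3 each). The meiotic gene c(3)G averaged 4.15 ± 0.559 FPKM in Monosiga Yap-TBD libraries and 7.81 ± 0.780 in controls (SD, n = 3 each). The group means of the other 8 genes spanned less than 1 log2 unit, so no nearest genes were named for them.

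Around the receptor, 5 pathway lists were counted in the same fit. Of 11 tested genes of 16 listed for ecdysteroid synthesis and inactivation, which include ftz-f1, 3 rose and 0 fell in Monosiga Yap-TBD against the control, where 24.6% of all tested genes passed in either direction. In Monosiga Yap limma called 0 of them, where 0.326% of all tested genes passed. Cyp18a1, which encodes the hydroxylase that inactivates ecdysteroids, is counted among the 3, although it passed the filter on low values through Monosiga Yap-TBD alone. Its FPKM was 19.8, 19.2 and 26.2 in Monosiga Yap-TBD libraries, against 0.216, 0.284 and 0.280 in control libraries, and it was at most 0.347 in the libraries of the other 3 constructs. The insertion site of the transgene and the construct cannot be told apart in this single group.

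The zinc-finger genes mld and woc, both required for ecdysone synthesis, were the other 2 counted there. mld rose to 95.3 ± 4.69 FPKM in Monosiga Yap-TBD (limma adjusted p = 1.94e-06), 33.9 ± 4.24 in Yki S168A (0.0484) and 42.9 ± 10.3 in Trichoplax Yap S81A (0.00425), against 22.3 ± 3.81 in controls (SD, n = 3 each). woc rose with ratios of 1.33, 1.53 and 1.44 in the same 3 constructs over the control (limma adjusted p = 0.0258, 0.00428 and 0.0112). The list had 2 that rose and 0 that fell in Yki S168A, and 2 that rose and 1 that fell in Trichoplax Yap S81A, where 11.9% and 12.2% of all tested genes passed. The gene that fell was the synthesis enzyme gene sad, at 1.80 ± 0.495 FPKM against 4.44 ± 0.648 in controls (SD, n = 3 each). The median log2 difference of the list in Monosiga Yap-TBD was -0.06, against 0.01 for all tested genes.

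Of 19 tested receptor partners and coregulators of 22 listed, 2 rose and 2 fell in Monosiga Yap-TBD against the control, 2 rose and 1 fell in Yki S168A, and 3 rose and 1 fell in Trichoplax Yap S81A, where 24.6%, 11.9% and 12.2% of all tested genes passed. dre4, a subunit of the FACT histone chaperone, had ratios of 1.59, 1.61 and 1.56 over the control in these 3 constructs, and Bap55, of the Brahma complex, had 1.502, 1.44 and 1.38, all past limma's threshold. Utx, a histone demethylase, fell in Monosiga Yap-TBD to 30.2 ± 2.24 FPKM, against 39.5 ± 1.13 in controls (SD, n = 3 each, limma adjusted p = 0.00918). The zinc-finger gene crol rose in Trichoplax Yap S81A against the control, with a ratio of 1.36 (limma adjusted p = 0.0459). The list's median log2 differences for these 3 constructs were 0.04, 0.16 and 0.21, against 0.01, 0.00 and 0.04 for all tested genes.

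Among 10 other nuclear receptor genes tested, 2 rose and 1 fell in Monosiga Yap-TBD, and 1 fell in each of Yki S168A and Trichoplax Yap S81A, where 24.6%, 11.9% and 12.2% of all tested genes passed. The receptor that fell was svp in all 3. svp, which photoreceptor precursors express, averaged 2.77 ± 0.639 FPKM in Monosiga Yap-TBD, 5.19 ± 0.520 in Yki S168A and 4.23 ± 0.569 in Trichoplax Yap S81A, against 17.1 ± 3.69 in controls (SD, n = 3 each, limma adjusted p = 1.97e-06, 0.000254 and 5.55e-05). Photoreceptor and neuron markers were lower in the same 3 constructs, and their part in this was not tested. In Monosiga Yap, where those markers lay near the control, svp averaged 10.8 ± 2.07 FPKM (SD, n = 3) and was not called. Its Monosiga Yap libraries, at 8.59 to 12.7 FPKM, still lay below all control libraries, at 13.4 to 20.7, as did 3.61% of all tested genes. kni, a knirps-family receptor gene, rose in Monosiga Yap-TBD to 9.02 ± 2.52 FPKM, against 1.56 ± 0.137 in controls (SD, n = 3 each, limma adjusted p = 0.000194), together with its relative knrl. Hr4 did not pass in any of the 4 comparisons with the control.

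Of 31 other ecdysone-inducible genes tested of 35 listed, 1 rose and 0 fell in Monosiga Yap, 5 rose and 3 fell in Monosiga Yap-TBD, 3 rose and 1 fell in Yki S168A, and 5 rose and 1 fell in Trichoplax Yap S81A, where 0.326%, 24.6%, 11.9% and 12.2% of all tested genes passed. Cyp18a1, described above, is also on this list and among the 5 in Monosiga Yap-TBD. The list moved both ways in Monosiga Yap-TBD, with a median log2 difference of -0.32 against 0.01 for all tested genes. Eip71CD, a methionine sulfoxide reductase, rose in all 4, with a ratio of 1.60 in Monosiga Yap (limma adjusted p = 0.0469) and 1.39 in Yki S168A (0.0284). ImpL3, which encodes lactate dehydrogenase, rose to 33.3 ± 5.03 FPKM in Monosiga Yap-TBD, 8.64 ± 0.574 in Yki S168A and 14.6 ± 2.62 in Trichoplax Yap S81A, against 4.35 ± 1.13 in controls (SD, n = 3 each, limma adjusted p = 2.98e-06, 0.0341 and 0.000761). In Monosiga Yap it averaged 9.55 ± 3.61 FPKM (SD, n = 3), a higher mean than in Yki S168A, and was not called. Those libraries ran from 5.46 to 12.3 FPKM and overlapped the control libraries, at 3.29 to 5.54. ImpL2, an insulin-binding secreted protein, rose in Monosiga Yap-TBD with a ratio of 2.38 (limma adjusted p = 0.000616), and E23, an ABC transporter gene, with a ratio of 2.21 (0.0116). E23 also rose in Trichoplax Yap S81A, with a ratio of 2.06 over the control (limma adjusted p = 0.0345).

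The inducible genes that fell in Monosiga Yap-TBD against the control were ImpE2, ImpE3 and Ama. ImpE3 averaged 47.5 ± 23.7 FPKM there and 131 ± 58.9 in controls (SD, n = 3 each, limma adjusted p = 0.0106), and 2 of its 3 Monosiga Yap-TBD libraries are among those low in Hr46. The 2 groups overlapped, with 74.9 FPKM in Monosiga Yap-TBD replicate 2 and 70.9 in control replicate 3. Ama, a secreted immunoglobulin-domain protein, fell in Yki S168A and in Trichoplax Yap S81A with ratios of 0.404 and 0.476 over the control (limma adjusted p = 8.44e-05 and 0.000245).

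Of 8 tested juvenile hormone and temporal genes of 11 listed, 2 rose and 0 fell in each of Monosiga Yap-TBD, Yki S168A and Trichoplax Yap S81A against the control, where 24.6%, 11.9% and 12.2% of all tested genes passed. Imp, an RNA-binding protein of early developmental stages, averaged 35.0 ± 1.03 FPKM in Monosiga Yap-TBD, 21.5 ± 1.43 in Yki S168A and 23.1 ± 2.94 in Trichoplax Yap S81A, against 10.7 ± 0.189 in controls (SD, n = 3 each, limma adjusted p = 2.14e-06, 0.000808 and 0.000267). ab, a BTB zinc-finger gene, rose with ratios of 2.58 in Monosiga Yap-TBD and 1.59 in Trichoplax Yap S81A (limma adjusted p = 0.000251 and 0.0496), and CG17838, now named Syp, rose with a ratio of 1.31 in Yki S168A (0.0363). Between Trichoplax Yap S81A and Yki S168A, limma called 0 genes of these 5 lists.

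Some values carry limits of the counting. EcR and Eip75B overlap genes on the other strand, and whether strand was kept is not given in the sources used here. usp and Hr46 overlap a gene on the same strand in the deposited coordinates. The values are totals per gene, so the isoforms of these genes, with 2 to 16 annotated transcripts each in Ensembl 115, were not told apart.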

How the data were processed

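Polyadenylated RNA of 15 libraries was sequenced, 3 per group, after a TruSeq preparation per the labels' protocols. Reads were processed on build dm3 with TopHat 1.0.14, Cuffdiff 1.0.2, Cufflinks and CASAVA 1.7.0, per the submitters' processing notes, with settings and annotation not given in the sources used here. The deposited FPKM values cover 14671 genes and were made by the authors, with scaling between libraries not stated. The authors' second table holds the natural log of each construct's ratio to the control, limited at -6 and 6 per the file's values, and a p-value for each, as deposited. The adjusted values deposited beside them exceed 1 in places and were treated as a score made by the authors. A mean log2 level, with a floor of -6, is deposited there too, computed by the authors.

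From the FPKM values, log2(FPKM + 1) of 9213 genes was modelled by group over all 15 libraries with limma 3.58.1 under R 4.3.3, using a variance trend and robust moderation (degrees of freedom: 10 residual, 3.75 prior in the median). Tests were two-sided, Benjamini-Hochberg adjustment ran over all tested genes within each contrast, and an adjusted p under 0.05 was a call. Errors are SD of 3 libraries unless given as SE, and ratios are of mean FPKM. The labels say that RNA was extracted in triplicate, and not whether from separate crosses, so p-values measure the spread between these samples, which may be technical. Depth was estimated from the steps between low values in 663 genes, with python 3.11.15, numpy 2.4.6 and pandas 2.3.3, and the figures were drawn with matplotlib 3.10.9.

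The 10 genes and the pathway and marker lists were chosen with earlier results of these data known. All 10 genes were named in each comparison. Of each pathway list, up to 4 called genes per comparison could be named, those with the largest change whose groups did not overlap and whose higher mean FPKM was at least 5. Outside that rule, sad, knrl, Hr4, Blimp-1, ImpE2, ImpE3, Ama, Eip55E and Eip71CD were named after their values were seen. Nearest profiles were named for genes whose group means span at least 1 log2 unit, among genes with a mean FPKM of at least 5. Alternatives covered the pseudocount (0.1 and 5), the filter, the scaling, library weights, a replicate block, moderation, the groups fitted and each library left out. The fit was tested on simulated data. Promoter and protein sequences were not analysed here.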

Additional observations from a re-analysis of the deposited data

How the results depend on the processing

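The fall of Eip93F in Monosiga Yap-TBD passed limma's threshold under each alternative in which the gene could be tested, with adjusted p up to 0.0302 against the control and 0.0278 against Monosiga Yap. A filter at an FPKM of 5 removed Eip93F by construction and left 1 of the 10 genes called in either comparison, Hr39 against the control and Eip74EF against Monosiga Yap. With array weights of limma, which ran from 0.281 for Monosiga Yap replicate 2 to 6.51 for Yki S168A replicate 2, 8 genes were called in Monosiga Yap-TBD against the control (all but usp and br) and 1 (Hr39) in Yki S168A against the control. The same weights called 4014 and 3033 of all 9213 tested genes in these comparisons, where equal weights called 2264 and 1100. In Monosiga Yap-TBD against Monosiga Yap, 1 gene (Eip93F) was called with no filter, with upper-quartile scaling, with cyclic loess and with only these 2 groups in the fit; Eip74EF was lost there, with adjusted p of 0.0501, 0.0787, 0.128 and 0.147. Apart from the changed filter and the left-out libraries, the cause of these changes was not tested. Leaving out 1 library at a time gave 1 to 2 called genes in each of these comparisons of Monosiga Yap-TBD and 0 in the other 4. A replicate block gave the same counts of called genes as no block in all 6 comparisons. These were 2 for each comparison of Monosiga Yap-TBD and 0 elsewhere. Of 30 same-numbered pairs, 6 had a correlation of deviations over 0.1 (range -0.40 to 0.32), so no pairing by number ran through all libraries. These correlations cannot exclude a batch or stage shared by some same-numbered libraries, which was not tested. Of 954 values of single genes under the alternatives, 931 kept their side of the threshold, 12 fell out, 11 came in and 0 reversed, and 47 changed sign without a call either way.

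Among all tested genes, called counts moved by over 1.5 times as follows. With array weights they were 79 in Monosiga Yap, 4014 in Monosiga Yap-TBD, 3033 in Yki S168A and 2156 in Trichoplax Yap S81A against the control, and 699 in Trichoplax Yap S81A against Yki S168A, where equal weights gave 30, 2264, 1100, 1122 and 47. With only the groups compared they were 13 in Monosiga Yap against the control, 1544 in Monosiga Yap-TBD against Monosiga Yap (2442 with all groups) and 21 in Trichoplax Yap S81A against Yki S168A. They were 16 to 18 in Monosiga Yap when any of its libraries or control replicate 1 or 2 was left out, 723 in Yki S168A without control replicate 2, 745 in Trichoplax Yap S81A without its replicate 3, and 29 and 30 in Trichoplax Yap S81A against Yki S168A without Yki S168A replicate 2 or 3. At 12.1 to 20.7 M fragments, the values of Eip93F are the ones most limited by depth.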
